A study of Mus musculus with 14 samples.

Results

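A set of 10 genes for neuropeptides and granins of the cortex was examined in nuclei of neurons from the medial entorhinal cortex (MEC) of aged and young mice. The members are Sst, Npy, Vip, Cck, Tac1, Penk, Pdyn, Crh, Vgf and Scg2, taken by gene symbol, and they make up 10 of the 27781 named genes in the deposited table. The MEC is a parahippocampal area with neurons tuned to position, and the study set the expression profiles beside electrical recordings. SmartSeq libraries of RNA extracted with TriZol and chloroform formed 7 aged samples (numbered 3, 4, 5, 6, 7, 12 and 13) and 7 young samples (numbered 2, 3, 11, 16, 17, 18 and 19). The sources used here give no age in months, strain, sex or treatment. Nothing in the labels says that each library came from its own animal, so p-values measure the spread between these samples, which may be technical.

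Neuropeptides are cut from larger precursor proteins, packed into dense-core granules and released on strong or repeated firing, after which they act on G protein-coupled receptors. Granins such as Vgf and Scg2 are granule proteins that help to form these vesicles and are themselves cut into active peptides. In the cortex the peptide genes mark classes of inhibitory interneuron: Sst the dendrite-targeting cells, Vip the cells that inhibit other interneurons, and Npy the neurogliaform cells and part of the Sst class. Cck and Penk are also made by excitatory neurons.

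Values are the authors' normalized expression values per gene, so the depth of sequencing behind them is unknown. The libraries formed 2 sets, which cut across age and were separated by Xist, a long RNA made from the inactive X chromosome of females. Aged libraries 3 to 7 and young libraries 2 and 3 had Xist between 7378 and 25459 and are called Xist-positive, and the other 7 libraries had Xist between 0 and 5.13 and are called Xist-negative. Xist-positive libraries had 21152 to 22812 genes above 0, and Xist-negative ones had 25263 to 25615. The labels name neither the sets nor their cause. Since 5 of 7 aged but 2 of 7 young libraries were Xist-positive, set and age are partly confounded. Neuron markers (Rbfox3, Snap25, Syt1 and Map2) summed to 97680 to 179918 in aged libraries and 113618 to 155665 in young libraries.

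Aged library 3 went against its MEC label. Its Th value, for the enzyme that makes the dopamine precursor, was 22469, and Th lay between 36.0 and 173 in the other 13 libraries. Slc6a3, the dopamine transporter gene, stood at 31030 there and at 24.6 to 724 in the other 13. A list of 8 dopamine neuron genes, chosen after the values were seen, summed to 89073 in aged library 3 and to 2445 to 5061 elsewhere. A list of 5 genes of cortical glutamatergic neurons, among them Tbr1 and Fezf2, summed to 135 in aged library 3. The sum was 327 in aged library 12 and 1089 to 3487 in the rest. Neurod6, a transcription factor gene of cortical excitatory neurons, was low in 3 aged libraries, at 107 in library 3, 173 in library 7 and 40.1 in library 12, and between 462 and 1276 in the other 11. Libraries 7 and 12 had Th at 61.3 and 111. The members are therefore given with and without these libraries, a choice made after the data were examined.

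Per kilobase of exon, Sst had the highest mean level of the members in both age groups. Whether intronic reads of these nuclei were counted is not known, and division by exonic length takes no account of them, so the order is a description. Mean levels per exonic kilobase in aged libraries ran from 3110 for Sst through 2321 for Scg2, 1837 for Penk, 1803 for Npy and 1562 for Cck to 414 for Vgf, 239 for Vip, 150 for Tac1, 84.9 for Pdyn and 47.3 for Crh. In young libraries the order was Sst at 1652, Npy at 1643, Cck at 1263, Scg2 at 903, Penk at 688, Vip at 285, Vgf at 284, Tac1 at 72.5, Pdyn at 70.4 and Crh at 45.9. Most neighbours in these orders could not be told apart by their spread. The gap to the next gene was larger than the larger SD of the pair for 3 of the 9 neighbours in aged libraries (Cck to Vgf, Vgf to Vip and Pdyn to Crh) and for 1 of 9 in young libraries (Vgf to Tac1).

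**Figure D1:**
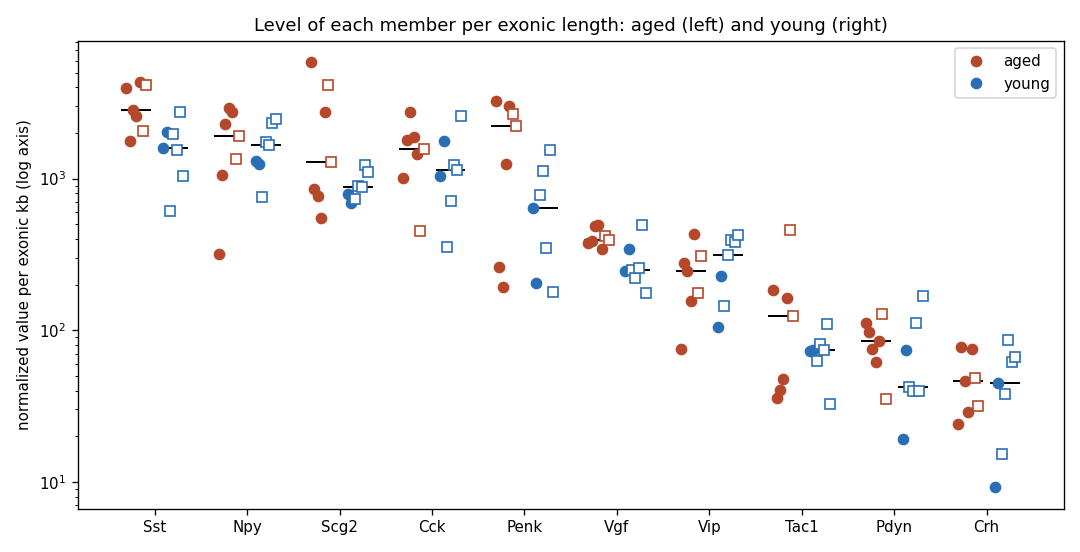
Level of each member per exonic kilobase (log axis, normalized value divided by the exonic length of the gene), with aged libraries on the left and young libraries on the right of each gene; filled circles are Xist-positive libraries, open squares Xist-negative ones, and lines are medians. Sst leads the order at means of 3110 in aged and 1652 in young libraries, and Crh closes it at 47.3 and 45.9.

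The cAMP response element, the DNA site bound by the activity-dependent factor CREB, was first worked out in the promoter of the rat Sst gene. RefSeq promoter windows (GRCm38.p6, 250 bases before to 50 after the transcription start) were held for 7 of the 10 members, with none for Penk, Crh and Vgf. The full site TGACGTCA, which reads the same on both strands, was in 2 of these 7, Sst and Scg2, and in 1.79% of the 32817 windows of the table. The site without its last bases, TGACG on either strand, which each full site also contains, was in 5 of 7 members (Sst, Scg2, Tac1, Cck and Vip) and in 20.8% of all windows. The 120 bases before the start are shown for the gene with the largest age difference relative to its error, for 2 genes that shared a library pattern described below, and for Vip, which had no such difference. Capitals mark the site, which begins 48 bases before the start in Sst (-48), at -68 in Scg2, at -43 in Tac1 (as CGTCA, the other strand, with a further site at -197 that is not shown) and at -79 in Vip. These RefSeq starts lie inside the gene spans given below for Sst, Scg2 and Tac1, which come from GENCODE.
Sst, chr16:23890845-23890964, minus strand: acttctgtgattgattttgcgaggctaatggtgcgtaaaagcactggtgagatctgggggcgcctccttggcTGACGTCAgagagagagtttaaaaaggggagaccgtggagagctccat
Scg2, chr1:79440027-79440146, minus strand: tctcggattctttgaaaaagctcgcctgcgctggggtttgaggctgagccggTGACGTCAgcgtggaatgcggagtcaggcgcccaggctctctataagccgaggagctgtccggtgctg
Tac1, chr6:7554941-7555060, plus strand: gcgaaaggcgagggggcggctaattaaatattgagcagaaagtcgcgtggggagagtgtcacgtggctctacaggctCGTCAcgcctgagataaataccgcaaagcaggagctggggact
Vip, chr10:5639098-5639217, plus strand: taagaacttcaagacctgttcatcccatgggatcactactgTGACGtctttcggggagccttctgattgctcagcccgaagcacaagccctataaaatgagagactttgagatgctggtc
A match to these letters is a description of the sequence only.

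The comparison of aged with young libraries asked which members differed with age. None of the 10 passed an adjusted p of 0.05 in limma, where 1 of 24554 genes passed (0.00407%). At an unadjusted p under 0.05, Sst and Vgf were higher in aged libraries, 2 of 10 members against 6.5% of all genes, and no member was lower, against 17.6% of all genes. The log2 difference, aged minus young, was above 0 for 8 of 10 members (37.2% of all genes) with a median of 0.53, against -0.25 over all genes. Among the 16236 genes with a mean of 100 or more, a range that holds every member except Crh, 48.5% had a positive difference and the median was -0.02. In bulk nuclei, fewer cells of a type and less RNA per cell cannot be told apart.

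**Figure D2:**
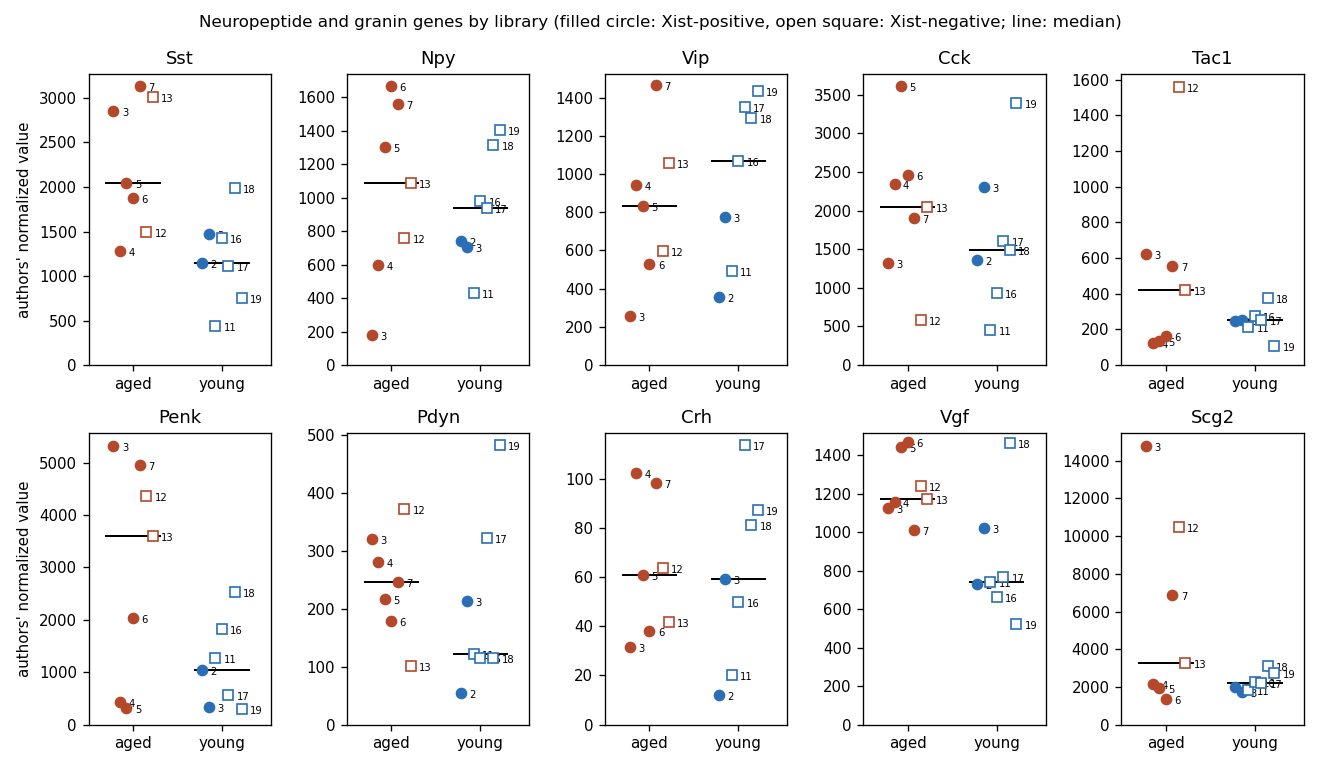
Normalized value (linear axis, each from 0) of the 10 members in each of the 14 libraries, aged on the left and young on the right, with library numbers beside the points, filled circles for Xist-positive and open squares for Xist-negative libraries, and lines at the medians. Sst had a median of 2050 in aged and 1150 in young libraries, while Scg2, Penk and Tac1 have high points in aged libraries 3, 7 and 12.

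Sst (chromosome 16, 23889573 to 23890958, minus strand, mm10) encodes somatostatin, an inhibitory peptide. It measured 2850, 1281, 2050, 1879 and 3138 in aged libraries 3 to 7, and 1490 and 3009 in aged libraries 12 and 13. Young libraries 2 and 3 had 1150 and 1473, and young libraries 11 and 16 to 19 had 444, 1429, 1109, 1984 and 752. The groups overlapped, but every aged library lay above the young median and 4 lay above every young library. The groups of none of the 10 members were without overlap (0.212% of all genes), and 4 members (Sst, Tac1, Penk and Scg2) had at least 4 aged libraries above every young one (7.07% of all genes). Of the 49 pairs of an aged and a young library, the aged one was higher in 44. Means were 2242 ± 755 over the aged and 1191 ± 504 over the young libraries (SD, n = 7 per group). The log2 difference was 0.97 (SE 0.31, 95% interval 0.32 to 1.62, limma adjusted p = 0.182).

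The Sst difference was of similar size without the libraries that stood apart. It was 0.90 without aged library 3 (adjusted p = 0.300) and 0.85 without aged libraries 3, 7 and 12 (adjusted p = 0.190). Without aged library 12 alone it was 1.06 and passed the threshold (adjusted p = 0.0467), in a fit where 2723 genes passed. With library set as a model term it was 0.89 (SE 0.33, adjusted p = 0.298). Within the sets it was 0.71 over the 5 aged and 2 young Xist-positive libraries and 1.07 over the 2 aged and 5 young Xist-negative ones, and the test of the difference between the sets gave -0.36 (SE 0.69, adjusted p = 0.9997).

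The genes for GABA synthesis gave smaller log2 differences. Gad1, the main GABA-synthesizing enzyme gene, averaged 3923 in aged libraries and 3401 in young ones (difference 0.16, adjusted p = 0.6996). Gad2, the second such enzyme, averaged 3293 in aged libraries and 2208 in young ones (difference 0.43, adjusted p = 0.334). Slc32a1, the vesicular GABA transporter gene, had a larger difference of 0.96 (limma adjusted p = 0.262) at lower values, with means of 104 in aged and 46.7 in young libraries. Against the mean log2 level of Gad1, Gad2 and Slc32a1, the log2 level of Sst was 1.15 ± 0.78 over the aged and 0.69 ± 0.60 over the young libraries (SD, n = 7 per group). That difference of 0.46 was within the spread of the libraries (two-sided exact permutation test over 3432 splits, p = 0.247, and p = 0.229 over the 441 splits within the library sets). It was 0.77 without aged libraries 3, 7 and 12 (exact permutation p = 0.0727) and 0.26 without young library 11 (p = 0.466). Against Gad1 alone it was 0.81 (two-sided exact permutation p = 0.0361), and against Lhx6, a transcription factor gene of Sst and parvalbumin cells, it was 1.85 (p = 0.0227), with Lhx6 at 8.17 in aged library 3 and a difference of 1.02 without that library (exact permutation p = 0.0455). Adjusted over these 3 comparisons, p was 0.247 for the 3 genes and 0.0542 for both Gad1 and Lhx6, so none passed. The log2 level of Sst relative to the 3 genes was above the young median in 4 of 7 aged libraries, and relative to Gad1 alone in 6 of 7.

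The 4 other genes listed as markers of Sst interneurons had log2 differences between 0.08 and 0.24. Elfn1, which sets the properties of synapses onto Sst cells, averaged 597 in aged libraries and 513 in young ones (difference 0.19, adjusted p = 0.647). Grin3a, an NMDA receptor subunit gene, averaged 5760 in aged libraries and 4778 in young ones (0.24, adjusted p = 0.448). Nos1 and Chodl, markers of long-range Sst cells, had log2 differences of 0.20 (adjusted p = 0.670) and 0.08 (adjusted p = 0.964). None of the 4 had an unadjusted p under 0.05, and whether the Sst difference exceeds theirs was not tested. Lhx6 and Sox6, transcription factor genes shared by Sst and parvalbumin cells, had negative differences of -0.88 (adjusted p = 0.429) and -0.48 (adjusted p = 0.532), which were 0.07 and 0.22 with library set as a model term and aged library 3 left out.

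Vgf (chromosome 5, 137026392 to 137033351, plus strand) encodes a granin first found as a gene induced by nerve growth factor. Its values were 1125, 1158, 1443, 1468 and 1014 in aged libraries 3 to 7, and 1242 and 1172 in aged libraries 12 and 13. In young libraries 2 and 3 they were 729 and 1024, and in young libraries 11 and 16 to 19 they were 739, 661, 766, 1463 and 523. Aged libraries sat close together, with a coefficient of variation of 13.6% against 36.9% in young libraries. Of the young libraries, 5 of 7 lay below every aged one, and young library 18 overlapped the top of the aged range. Means were 1232 ± 168 over the aged and 844 ± 312 over the young libraries (SD, n = 7 per group), with a log2 difference of 0.61 (SE 0.20, 95% interval 0.18 to 1.04, limma adjusted p = 0.182).

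The Vgf difference was 0.63 without aged library 3, 0.70 without aged libraries 3, 7 and 12 and 0.57 with library set as a model term (adjusted p = 0.300, 0.169 and 0.309). Against the mean log2 level of the 4 neuron markers, Vgf stood at -4.51 ± 0.39 over the aged and -4.88 ± 0.55 over the young libraries (SD, n = 7 per group). That difference of 0.37 was within the spread (two-sided exact permutation test, p = 0.179). Over single libraries left out it ran from 0.25 to 0.54. The top of that range came without young library 18, which had the highest young Vgf value (unadjusted exact permutation p = 0.0163). Each of the other libraries left out gave a p of 0.121 or more.

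Scg2, Penk and Tac1 had their highest values in the same 3 aged libraries. Aged libraries 3, 7 and 12 lay above every other library for these 3 of the 10 members, and for 0.591% of all genes tested. These are the libraries with low Neurod6. The part of their other cell markers in these values was not tested.

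Scg2 (chromosome 1, 79434669 to 79440120, minus strand) encodes secretogranin II, the precursor of secretoneurin. It measured 14805, 6887 and 10490 in aged libraries 3, 7 and 12. The other 4 aged libraries had 2133, 1926, 1378 and 3248, and the young ones lay between 1725 and 3109 with a median of 2215. For this gene 4 of 7 aged libraries exceeded every young one, and the lowest value of all was aged library 6. Means were 5838 ± 5144 over the aged and 2271 ± 499 over the young libraries (SD, n = 7 per group), and the log2 difference was 0.88 (SE 0.46, adjusted p = 0.230). Without aged library 3 it was 0.57 (adjusted p = 0.394). Leaving out libraries 3, 7 and 12, the difference was -0.10 (adjusted p = 0.791), and 0.14 with library set as a further term.

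Penk (chromosome 4, 4133531 to 4138819, minus strand) encodes proenkephalin, the precursor of the opioid enkephalins. It was 5315, 4951 and 4358 in aged libraries 3, 7 and 12 and 3609 in aged library 13. Aged libraries 4, 5 and 6 had 425, 314 and 2042, and young libraries ran from 291 through a median of 1047 to 2534. The spread was wide in both groups, with coefficients of variation of 69.5% in aged and 73.8% in young libraries. Means were 3002 ± 2088 over the aged and 1124 ± 830 over the young libraries (SD, n = 7 per group). Its log2 difference was 1.19 (SE 0.69, adjusted p = 0.270), the largest among the members. With library set as a model term it was 1.66 (adjusted p = 0.351), and without aged libraries 3, 7 and 12 it was 0.22 (adjusted p = 0.864).

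Tac1 (chromosome 6, 7554879 to 7565834, plus strand) encodes the precursor of substance P and neurokinin A. It reached 1561 in aged library 12, 621 in aged library 3 and 557 in aged library 7, with 419 in aged library 13. Aged libraries 4, 5 and 6 had 121, 136 and 162, and young libraries lay between 110 and 375 with a median of 250. The aged group thus held values above and below most of the young ones. Means were 511 ± 507 over the aged and 247 ± 79 over the young libraries (SD, n = 7 per group), with a log2 difference of 0.57 (SE 0.51, adjusted p = 0.468). Without aged libraries 3, 7 and 12 the difference was -0.35 (adjusted p = 0.595). Within the library sets the difference was -0.01 over Xist-positive and 1.82 over Xist-negative libraries, and the test of that gap gave -1.83 (SE 0.98, adjusted p = 0.9997).

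**Figure D3:**
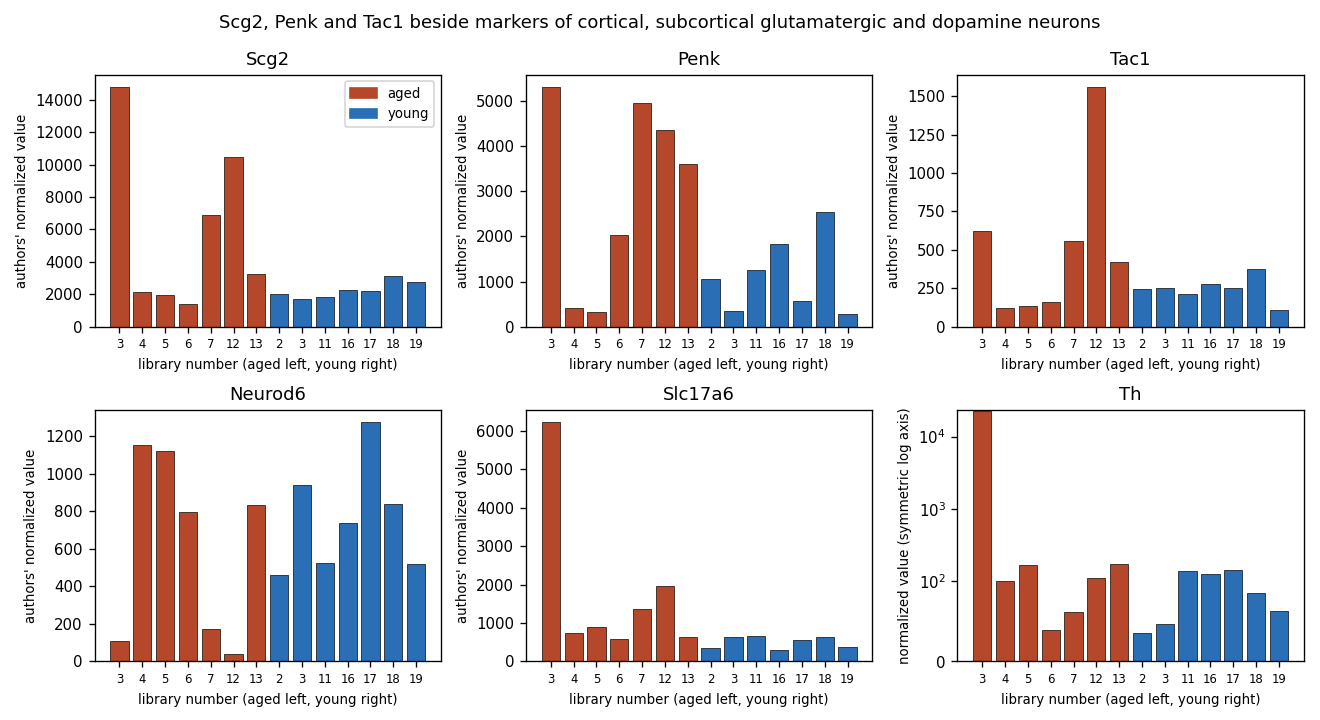
Normalized values in each library (aged bars on the left, young bars on the right, numbered by library) of Scg2, Penk and Tac1 above Neurod6, Slc17a6 and Th; axes start at 0 and that of Th is a symmetric log axis. Aged libraries 3, 7 and 12 have the highest Scg2 (14805, 6887 and 10490) and the lowest Neurod6 (107, 173 and 40.1), and Th is high in aged library 3 only (22469).

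Slc17a6, the vesicular glutamate transporter gene used more by subcortical than by neocortical neurons, was highest in the same 3 libraries. It measured 6241, 1363 and 1956 in aged libraries 3, 7 and 12, and lay between 286 and 889 in the other 11 libraries. Slc17a7, the main cortical transporter gene, was 1562, 6696 and 2409 in the 3 libraries and 2895 to 13675 in the other 11, so that library 7 was not low in it.

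Npy, Vip and Cck had differences of both signs over all 14 libraries, and all 3 were positive with library set as a model term and aged library 3 left out (0.32, 0.15 and 0.13). Npy (chromosome 6, 49822710 to 49829507, plus strand), which encodes neuropeptide Y, averaged 1021 ± 539 over the aged and 930 ± 344 over the young libraries (SD, n = 7 per group). Its log2 difference was -0.05 (SE 0.43, adjusted p = 0.949) over all libraries and 0.32 without aged library 3, whose value of 180 was the lowest of the 14. Its 95% interval, -0.96 to 0.86, holds changes of either sign.

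Vip (chromosome 10, 5639218 to 5647617, plus strand), which encodes vasoactive intestinal peptide, averaged 812 ± 395 over the aged and 968 ± 430 over the young libraries (SD, n = 7 per group). The log2 difference was -0.27 (SE 0.39, 95% interval -1.09 to 0.55, adjusted p = 0.669). Aged library 3 again had the lowest value of the 14, at 257, and without it the difference was -0.02. Of the aged libraries, 1 of 7 lay above the young median of 1071.

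Cck (chromosome 9, 121489824 to 121495694, minus strand), which encodes cholecystokinin, averaged 2039 ± 948 over the aged and 1649 ± 960 over the young libraries (SD, n = 7 per group). The log2 difference was 0.36 (SE 0.42, adjusted p = 0.587), and 0.05 with library set as a model term. Without aged libraries 3, 7 and 12 it was 0.86 (SE 0.43, adjusted p = 0.228), and aged library 12 had the lowest aged value, 587.

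Pdyn and Crh had the lowest levels per kilobase. Pdyn (chromosome 2, 129686565 to 129699844, minus strand), the gene of the opioid precursor prodynorphin, averaged 245 ± 90 over the aged and 203 ± 151 over the young libraries (SD, n = 7 per group). Of the aged libraries, 6 of 7 lay above the young median of 122, yet the highest value of all was young library 19 at 482, and the log2 difference was 0.49 (SE 0.45, adjusted p = 0.479). It was 0.41 without aged library 3, 0.17 without aged libraries 3, 7 and 12, and 0.23 to 0.75 over single libraries left out. Within the sets the Pdyn difference was 1.16 over Xist-positive and 0.03 over Xist-negative libraries (test of that gap, adjusted p = 0.9997). Crh (chromosome 3, 19693401 to 19695396, minus strand), the gene of corticotropin-releasing hormone, averaged 62.4 ± 28.5 over the aged and 60.5 ± 36.6 over the young libraries (SD, n = 7 per group), with a log2 difference of 0.24 (SE 0.57, adjusted p = 0.807), or 0.37 without aged library 3 and 0.21 without aged libraries 3, 7 and 12. Young library 2 had the lowest value of Crh, 12.2, and of Pdyn, 55.0.

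**Figure D4:**
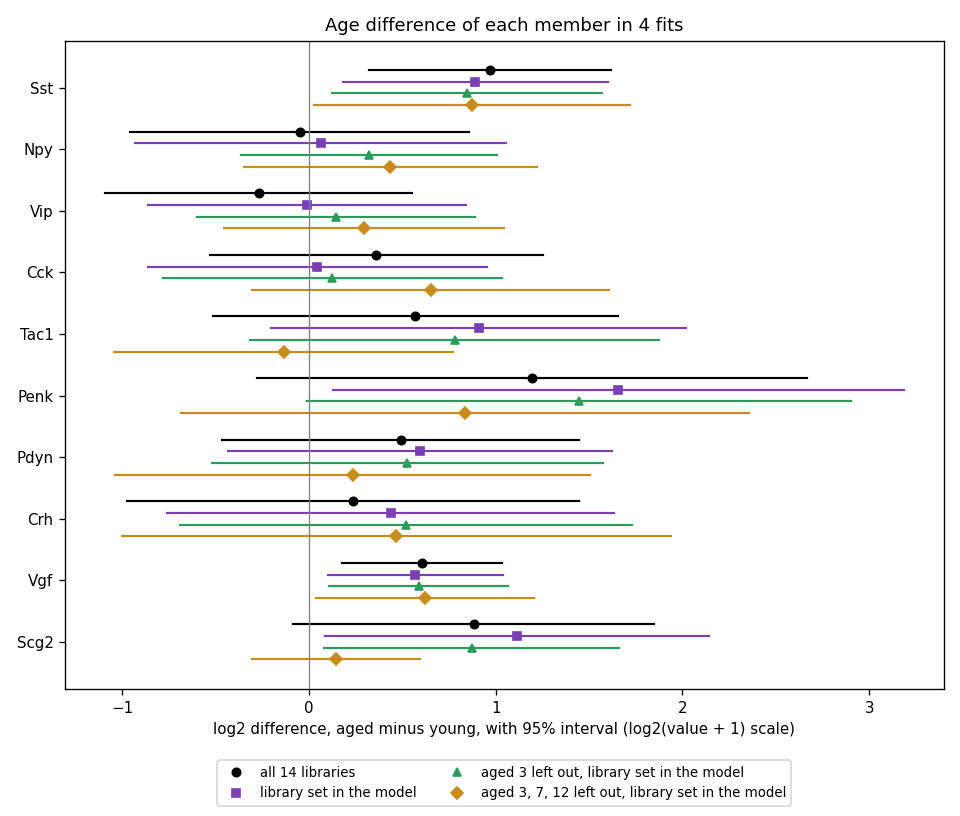
Difference of each member in log2(value + 1), aged minus young, with its 95% interval in 4 fits: all 14 libraries, with library set as a model term, with aged library 3 also left out, and with aged libraries 3, 7 and 12 also left out. Sst stays between 0.85 and 0.97 and Vgf between 0.57 and 0.62, while Tac1 is 0.57 over all libraries and -0.13 in the last fit.

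Single young libraries also held several extremes. Young library 18 had the highest young value of 5 members (Sst, Tac1, Penk, Vgf and Scg2), and young library 19 that of 4 (Npy, Vip, Cck and Pdyn). Young library 19 had the lowest young value of 3 members (Tac1, Penk and Vgf), as had young library 11 of 3 others (Sst, Npy and Cck).

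The library sets were compared in the members as well. None of the 10 members differed between Xist-positive and Xist-negative libraries at an adjusted p under 0.05 with age in the model, where 52.0% of all genes tested did, nor at an unadjusted p under 0.05 (57.3%). No member had an age difference that differed between the sets at an adjusted p (0.0% of all genes) or an unadjusted p under 0.05 (3.62%). Without aged library 3, the gap between the sets for Tac1 was -2.16 (SE 0.90), with an unadjusted 95% interval of -4.08 to -0.23 that leaves out 0. Its limma adjusted p was 0.9999, and it is 1 member picked from 10. The aged Xist-negative side held only libraries 12 and 13, with Tac1 at 1561 in library 12. With the set in the model, 4 of 10 members (Sst, Vgf, Scg2 and Penk) were higher in aged libraries at an unadjusted p under 0.05, against 4.03% of all genes, and none passed the adjusted threshold (0.00815% of all genes). With aged library 3 also left out, Sst, Vgf and Scg2 did so (3.61% of all genes), all 10 differences were positive (37.2% of all genes) and the adjusted p values were 0.316 for Sst and 0.299 for Vgf. The shares over all genes in these fits include low genes, and the sets differed in the number of genes above 0. Shares over genes at the level of the members are not given for these fits.

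The authors' deposited table called none of the members at an adjusted p under 0.05, where it called 2.41% of the 21253 genes with an adjusted p, and 5 of 10 had an unadjusted p under 0.05 (14.5% of its genes). In the authors' deposited table the log2 fold change, aged over young, was 1.77 for Penk (adjusted p = 0.135), 1.52 for Scg2 (0.0840), 1.19 for Tac1 (0.172), 0.87 for Sst (0.153) and 0.52 for Vgf (0.239).

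The other members of the secretory pathway were read from lists by role. The share of all genes with a positive difference, 37.2%, includes low genes. Among genes with a mean of 100 or more it was 48.5%. Of 27 other neuropeptide and granin genes, 15 had positive differences (55.6%, against 37.2% of all genes) with a median of 0.08, and none passed the adjusted threshold. The 3 with the smallest p were Pcsk1n, the proSAAS inhibitor of prohormone convertase 1 (log2 difference 1.25, mean 3028 in aged and 1252 in young libraries), Scg5, a chaperone of convertase 2 (0.71, 11914 and 7282), and Chga, chromogranin A (0.74, 4108 and 2300), each with an adjusted p of 0.182. All 3 were highest in aged library 3, and without it their differences were 1.04, 0.58 and 0.54 (adjusted p = 0.300 each). With library set also a model term they were 0.66, 0.51 and 0.36 (adjusted p = 0.269, 0.393 and 0.452).

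Of 16 genes for peptide processing and release, 11 had positive differences (68.8%, against 37.2% of all genes and 48.5% of genes with a mean of 100 or more). Their median was 0.26 and none passed. With library set as a model term there were 9 of 16, with a median of 0.04 against -0.16 over all genes. Cpe, carboxypeptidase E, which trims the cut peptides, averaged 29679 in aged libraries and 19370 in young ones (difference 0.62, adjusted p = 0.189). Syt4, a synaptotagmin of dense-core vesicles, had a difference of 0.41 (adjusted p = 0.188) and Rab3a, a vesicle GTPase, of 0.58 (adjusted p = 0.190).

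Of 23 neuropeptide receptor and binding protein genes, 7 had positive differences (median -0.20). This share of 30.4% was near the 37.2% of all genes and under the 48.5% of genes with a mean of 100 or more. Without aged library 3 there were 10 of 23 (43.5%, against 37.3% of all genes). Tacr1, the receptor of substance P, averaged 542 in aged libraries and 1384 in young ones (difference -1.83, adjusted p = 0.188), and the difference was -0.61 with library set as a model term. Sstr4, a somatostatin receptor, averaged 222 in aged libraries and 434 in young ones (-1.26, adjusted p = 0.196, and -0.73 without aged library 3). Oprl1, the nociceptin receptor, averaged 1593 in aged libraries and 1094 in young ones (0.51, adjusted p = 0.195), with a difference of 0.26 when library set was a model term.

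Of 28 GABAergic and interneuron class genes, 17 had positive differences (60.7%, against 37.2% of all genes), with a median of 0.12, and none passed. Among genes with a mean of 100 or more, a range that leaves out some of this list, the share was 48.5%. The count was 21 without aged library 3 and 11 without aged libraries 3, 7 and 12, where the median was -0.09. The 3 with the smallest p were Prox1, a factor of Vip and other interneurons (log2 difference -1.07, adjusted p = 0.191), Slc32a1 (0.96, adjusted p = 0.262) and Erbb4, the neuregulin receptor gene of many interneurons (0.47, adjusted p = 0.318). Slc32a1 averaged 104 in aged and 46.7 in young libraries, with 310 in aged library 3 and a difference of 0.64 without that library.

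Of 22 genes of the cAMP and CREB pathway, 12 had positive differences over all libraries (54.5%, against 37.2% of all genes), with a median of 0.11. With library set as a model term there were 6 (27.3%, against 37.5% of all genes), with a median of -0.22. In that fit 1 was higher and 5 were lower at an unadjusted p under 0.05, against 990 and 2217 of 24554 genes. Prkar2b, a regulatory subunit of protein kinase A, averaged 2802 ± 571 over the aged and 1498 ± 670 over the young libraries (SD, n = 7 per group; log2 difference 0.98, SE 0.23, adjusted p = 0.142). For this gene 6 of 7 young libraries lay below every aged one. Prkaca, a catalytic subunit, had a difference of 1.09 (adjusted p = 0.182), or 0.49 with the library set, and Nr4a1, an activity-induced nuclear receptor, of -0.97 (adjusted p = 0.212).

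Over the 14 libraries, after subtracting the mean of each library set, the genes whose log2 level was most like that of Sst were Pgrmc1, Ppp4c, Rrp1, Commd1 and Mrps6, with Pearson r between 0.92 and 0.94 among 13869 genes compared. These correlations are descriptions, since all values share the libraries and their normalization. Leaving out young library 11 and aged library 13, the libraries farthest from the Sst median, r was 0.92 for Pgrmc1 and for Ppp4c and between 0.81 and 0.85 for the other 3. Of the 8 other members compared (Crh, with a mean under 100, was not), r with Sst was 0.62 for Penk, 0.59 for Vgf, 0.56 for Tac1 and 0.51 for Scg2. Npy, a partner of Sst in many interneurons, had an r of 0.21. The order depended on the libraries used. Without aged library 3, r was 0.63 for Npy, 0.60 for Vgf and 0.59 for Penk. Without young library 11 and aged library 13 instead, r was -0.07 for Npy, 0.59 for Vgf and 0.77 for Penk.

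Summed markers of glia and vessels overlapped between the age groups, and none of their genes was at 0 in any library, but single markers had differences as large as that of Sst. Oligodendrocyte markers (5 genes, 4 with a higher aged mean) summed to 4664 to 16245 in aged libraries (mean 9531) and 3060 to 8910 in young libraries (mean 5448). The highest sum was that of aged library 3. Their median log2 difference was 0.55 over all libraries, 0.14 without aged library 3 and -0.16 without aged libraries 3, 7 and 12. With library set as a model term it was 1.04 over all libraries and 0.81 without aged libraries 3, 7 and 12. Mbp, a myelin protein gene, averaged 6383 in aged libraries and 3130 in young ones (adjusted p = 0.182), and Mobp, another, had a log2 difference of 1.04 (adjusted p = 0.186). Aqp4, the astrocyte water channel gene, averaged 349 in aged libraries and 154 in young ones (adjusted p = 0.186). All 4 endothelial genes had negative differences over all libraries (median -0.76), with Pecam1, an endothelial adhesion gene, at -1.38 (adjusted p = 0.199). With library set as a model term, 1 of the 4 was positive and the median was -0.14. Pecam1 was 229 and 90.2 in young libraries 2 and 3, which are Xist-positive, and 399 to 1350 in the young Xist-negative ones. Astrocyte markers (5 genes) summed to 2565 to 8860 in aged and 3583 to 6350 in young libraries, oligodendrocyte precursor markers (2 genes) to 99.5 to 1349 in aged and 100 to 1392 in young libraries, microglial markers (5 genes) to 599 to 4016 in aged and 543 to 3095 in young libraries, and endothelial markers (4 genes) to 334 to 2326 in aged and 576 to 2856 in young libraries. The part of these cells in the members' differences was not tested.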

How the data were processed

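The authors deposited 1 table of 27781 named genes with 14 library columns. The authors scaled these values before deposit to a normalized signal per gene, as the file headers and values show: every library has the same median ratio to the geometric mean, 1.02, over 18245 genes. Low values lay within 0.05 of whole steps in 19.1 to 28.8% of cases (10% by chance), so reads were not recovered, depth is unknown and no counting interval is given. A row without a name (0.0430 to 0.221% of totals) was left out. Per the file headers, the authors' log2 fold change, their test score and their p-value and adjusted p-value are also in the table. The submitters' processing notes name STAR, kallisto, DESeq2 and mm10, and the sources used here give no counting settings.

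The test was limma 3.58.1 (R 4.3.3) on log2(value + 1), with 24554 genes at 1 or more in at least 7 libraries, age as the only term and Benjamini-Hochberg adjustment over all of them. Differences are aged minus young on this scale, which understates changes of low genes. The fit was tested on simulated data. Relative levels used two-sided exact permutation tests (Python 3.11.15). Positions and exonic lengths come from GENCODE annotation of mm10, and promoters from RefSeq (GRCm38.p6). Library sets were split at a Xist value of 1000. No 2 libraries were duplicates (highest r 0.959). All members, the 3 smallest p of each other list and the 5 genes most like Sst are named by rule; Gad1, Gad2, Lhx6 and the Sst class genes were named as markers. A gene of the interneuron list and a marker of cortical neurons are not reported here and were taken out of the lists. The members and lists were chosen with earlier results of these data known. Alternatives covered scaling, pseudocount, filters, the library set, sample weights and leaving out libraries.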

Additional observations from a re-analysis of the deposited data

Results flagged for a closer look

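Tac1 in aged library 12 stood far from the rest of its group, at a normalized value of 1561 with the next aged library at 621. The gap was 0.653 of the range of the 7 aged libraries, past Dixon's critical value of 0.568. This holds for normalized values without a log. On the log2 scale of the fits, where high values lie closer together, the gap is a smaller share of the range and falls below that critical value. The lowest aged value was 121, in aged library 4. It was 1 of 20 groups examined, and chance alone marks about 1 in 20 such groups. The same library had 10490 for Scg2 and the lowest Neurod6, at 40.1; the part of its other cell markers in the Tac1 value was not tested.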

How the results depend on the processing

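No paired analysis was possible because the 2 age groups share a single replicate number. The count of genes past the adjusted threshold, 1 as reported, was 52 with equal totals, 5 with upper-quartile scaling, 8 with a pseudocount of 10, 16 among genes with a mean of 100 or more, 2 with the library set, 0 in Xist-positive and 5 in Xist-negative libraries, 13048 with sample weights, 0 without aged library 3 and with the set, and 0 without aged libraries 3, 7 and 12. Leaving out 1 library gave 0 to 2723, with 2723 without aged library 12, 116 without young library 3 and 18 without young library 2. Members past the threshold, 0 as reported, were 2 with sample weights (Sst at 0.85, adjusted p = 0.0351, and Vgf at 0.64, adjusted p = 0.0142) and 0 to 1 with 1 library left out (Sst at 1.06 without aged library 12, adjusted p = 0.0467). With sample weights 13048 of 24554 genes passed, a larger share than 2 of 10 members. Without aged library 12 it was 2723 of 23521 genes. Sst otherwise kept its direction and side of the threshold, with 0.76 to 1.12 over single libraries left out and an adjusted p of 0.0351 to 0.909 over its 27 alternatives (Vgf 0.0142 to 0.921). Members differing between library sets, 0 as reported (52.0% of all genes), were 1 with upper-quartile scaling (Vip) and 1 without aged libraries 3, 7 and 12 (Scg2). The shares of all genes in those fits are not given. Sst relative to GABAergic genes, 0.46 as reported, was 0.81 against Gad1 alone and 1.85 against Lhx6, both with an unadjusted p under 0.05, and 0.26 to 0.63 over single libraries left out.

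Directions turned as follows; the cause was not tested. Npy was 0.064 with the library set, 0.18 in Xist-positive libraries, 0.041 with sample weights, 0.32 without aged library 3 with the set, 0.32 without aged libraries 3, 7 and 12 (0.43 with the set), and -0.22 to 0.32 over single libraries left out. Vip was 0.39 in Xist-positive libraries, 0.15 without aged library 3 with the set, and 0.29 without the 3 with the set. Cck was -0.23 in Xist-negative libraries. Tac1 was -0.0059 in Xist-positive libraries, -0.11 with sample weights, -0.35 without the 3 and -0.13 with the set also. Crh was -0.23 in Xist-negative libraries and -0.082 to 0.44 over single libraries left out. Scg2 was -0.10 without the 3. Upper-quartile scaling moved the median over all genes to -0.45, against -0.25 as reported, and Sst to 0.77. Aged libraries 3, 7 and 12 were set apart after the data were examined. Depth is unknown, so low values such as those of Crh carry an error that could not be given.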
